A study of Mus musculus with 8 samples.

Results

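The genes described here make, coat and break down the triacylglycerol (TAG) of lipid droplets. They are *Dgat1* and *Dgat2* (synthesis), *Plin2* and *Plin3* (droplet coat), *Pnpla2*, *Lipe* and *Mgll* (lipases), *Abhd5* (activator of the lipase encoded by *Pnpla2*), and *Hilpda* and *G0s2* (its inhibitors). The members were taken by gene name: every peak that a deposited H3K4me3 table assigned to 1 of these 10 genes was kept, and all 10 genes had at least 1. They hold 19 of the 35486 listed peaks, and the table names 20871 genes in all. H3K4me3 is a histone mark that lies mainly at promoters. It was measured by an assay that the study calls CUT&Tag. As its methods describe it, the enzyme MNase, tethered to the antibody by protein A/G, cuts and releases the DNA next to the mark. The cells were CD45-CD31-EpCAM+ tumor cells sorted from lung tumors. Libraries 1 and 2 came from KL mice (KrasLSL-G12D/+Lkb1fl/fl), and libraries 3 and 4 from KLG4m/m mice (KrasLSL-G12D/+Lkb1fl/flGpx4m/m). In both groups an intranasal adenovirus with Cre started the tumors, tamoxifen was given, and cells were taken 10 weeks after the virus. The Gpx4m/m allele carries rox sites around part of *Gpx4* and a DreERT2 cassette that Cre switches on, so tamoxifen deletes *Gpx4* in cells that met Cre, whereas KL mice carry no such allele. The labels describe 1000000 cells per mouse and give the number of mice as 3 in total. This differs from the 4 libraries labelled for this mark. The study's figure legend for these assays gives 2 mice per group, which would match them. Because these statements differ, a separate mouse for each library is not certain.

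Cells store surplus fatty acids as TAG. DGAT1 and DGAT2 are unrelated enzymes that both add the last fatty acid to diacylglycerol, and the product collects in lipid droplets under a coat of perilipins, of which PLIN2 and PLIN3 are found in most tissues. Breakdown goes in steps: ATGL (the product of *Pnpla2*) removes the first fatty acid, hormone-sensitive lipase (*Lipe*) acts mainly on diacylglycerol, and monoacylglycerol lipase (*Mgll*) finishes the work. ABHD5, also called CGI-58, activates ATGL, whereas HILPDA and G0S2 inhibit it. The balance of these steps sets how long fatty acids, oxidized ones included, stay in a droplet.

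The libraries held 3244495 to 3463731 reads in listed peaks, so that 1 CPM (counts per 1000000 reads in peaks) is about 3 reads. The single listed peak of *Gpx4*, at its promoter, held 242 and 236 reads in KL and 304 and 301 in KLG4m/m, a difference of 0.40 on the log2 scale (edgeR adjusted p = 0.00854). The peak lies at the start site and says nothing about a deletion further along the gene. Of 7 epithelial markers all had a listed peak, and *Cdh1* and *Epcam* were lower in KLG4m/m by edgeR's test per gene. The list summed to 340.3 to 346.3 CPM in KL and 299.0 to 301.6 in KLG4m/m, but its median log2 fold change was -0.004. *Krt8* was lower without passing and *Cldn4* was near 0. *Krt18*, *Krt19* and *Cldn7* lay slightly above 0 without passing (0.07, 0.11 and 0.06 on the log2 scale). Of 7 alveolar type 2 markers 6 had a peak (*Sftpc* had none), 3 were lower, and their summed signal was 252.6 to 261.7 CPM in KL and 197.9 to 204.5 in KLG4m/m. Of 7 haematopoietic and macrophage markers 6 had a peak (*Marco* had none), although cells with CD45 had been gated out. Among these, *Spi1* and *Adgre1* were higher, and *Ptprc*, *Csf1r* and *Cd68* were higher without passing. *Mrc1* was lower in both KLG4m/m libraries without passing (-0.33 on the log2 scale). The list summed to 274.8 to 282.4 CPM in KL and 338.0 to 343.8 in KLG4m/m. Adipocytes, the cells best known for lipid droplets, were represented by 7 markers, of which *Lep*, *Plin1* and *Cidec* had no peak. The adipocyte list summed to 154.8 to 162.7 CPM in KL and 153.4 to 157.6 in KLG4m/m, and none of its genes passed the edgeR test or had an unadjusted p under 0.05. All 5 endothelial markers had a peak and 1 was lower (*Tek*), whereas 3 of 6 fibroblast markers had one and 1 was higher (*Pdgfrb*). The endothelial list summed to 143.6 to 167.5 CPM in KL and 135.1 to 155.8 in KLG4m/m, and the fibroblast list to 64.6 to 71.7 and 69.5 to 72.8. The part of these marker differences in the results below was not tested, and in sorted cells a smaller share of marked cells cannot be told apart from less mark per cell.

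The promoter sequences of 3 members are shown. Among the promoters with a sequence, their peaks gave the largest increase (*Lipe*), the largest decrease (*Abhd5*) and a small difference with overlapping groups (*Hilpda*). Only the increase at *Lipe* was called. They are RefSeq windows of GRCm38.p6, from 250 bases before to 50 after an annotated start, and were matched by gene symbol only, because the table gives positions that differ from GRCm38. The study's methods name a mouse genome of an Ensembl release built on GRCm38, yet the spans of all 10 genes in the table differ from those that RefSeq gives for that build. RefSeq windows were matched for 8 of the 10 genes, in 11 windows. Capitals mark ACGTG (the core of a hypoxia response element), CCAAT and GGGCGG (the GC box), searched on both strands.
*Lipe*, chr7:25395938-25396237, minus strand: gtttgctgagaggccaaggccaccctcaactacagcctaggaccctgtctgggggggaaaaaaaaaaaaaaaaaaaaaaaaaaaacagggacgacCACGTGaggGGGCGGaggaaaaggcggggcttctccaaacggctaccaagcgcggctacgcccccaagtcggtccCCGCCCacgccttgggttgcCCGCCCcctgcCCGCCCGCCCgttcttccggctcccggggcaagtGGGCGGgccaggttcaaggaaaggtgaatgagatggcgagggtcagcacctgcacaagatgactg
*Abhd5*, chr9:122351366-122351665, plus strand: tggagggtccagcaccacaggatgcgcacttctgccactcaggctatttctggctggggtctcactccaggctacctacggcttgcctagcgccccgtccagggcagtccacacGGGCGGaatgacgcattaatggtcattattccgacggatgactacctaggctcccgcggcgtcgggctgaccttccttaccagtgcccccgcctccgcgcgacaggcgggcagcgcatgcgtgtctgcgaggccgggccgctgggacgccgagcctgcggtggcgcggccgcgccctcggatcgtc
*Hilpda*, chr6:29272376-29272675, plus strand: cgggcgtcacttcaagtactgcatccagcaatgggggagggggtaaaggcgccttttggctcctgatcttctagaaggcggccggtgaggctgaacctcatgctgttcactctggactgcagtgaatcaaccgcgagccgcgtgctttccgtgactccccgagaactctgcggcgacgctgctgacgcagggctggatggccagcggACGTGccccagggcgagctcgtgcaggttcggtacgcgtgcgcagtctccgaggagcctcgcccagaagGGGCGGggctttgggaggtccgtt
A GC box occurred in 10 of the 11 windows, compared with 35.7% of all 32841 windows of that length. These 10 windows cover all 8 genes. The windows of *Hilpda* overlap each other, as do those of *Mgll*. The shares over all windows were not matched to the members for GC content. ACGTG occurred in 5 windows of 4 genes (*Lipe*, *Hilpda*, *Mgll* and *Plin2*), compared with 19.6% of all windows, and CCAAT in *Plin2* and *Plin3*, compared with 37.4%. In CACGTG, as in the windows of *Lipe*, *Plin2* and *Mgll*, ACGTG reads on both strands, so a single site gives a match on each. No window of these genes held TCACNCCAC (sterol response, 1.24% of all windows), TGACNNNGC (antioxidant response, 12.4%), TGACGTCA (cAMP response, 1.79%), TGAGTCA (AP-1, 5.2%) or TATAAA (13.6%). A run of TGACNNNGC can hold ACGTG. GC content ran from 50.7% to 72.3%, and all but 1 of the 11 windows (the other one of *Hilpda*) were above the median of 52.7% over all windows. The *Lipe* window printed here held 6 matches of the GC box and the other *Lipe* window, further along the gene, none. A match is a run of letters and not a measured site.

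Each of the 10 genes had exactly 1 peak within 1 kb of an annotated start site (its promoter peak), and 9 further peaks lay farther away. All these peaks are 400 bp wide, so their levels compare per length of DNA. How much of the mark at a gene lies outside this width was not measured. In KL cells *Dgat2* carried the strongest promoter peak, with 105.8 ± 5.59 CPM (SD, n = 2), and its mean over all 4 libraries stood above 95.1% of all listed promoter peaks. *Hilpda* (89.96 ± 5.17), *Pnpla2* (87.8 ± 4.81), *Plin2* (81.0 ± 1.09), *Plin3* (79.2 ± 4.82) and *Dgat1* (77.1 ± 3.60 CPM) followed. Of these neighbours, *Dgat2* and *Hilpda*, and *Pnpla2* and *Plin2*, were farther apart than the sum of their SDs, and the others were not. An SD of 2 libraries can fall below the counting error. At *Plin2* that error alone is 5.76 to 5.99% of a value, and at *Pnpla2* 5.62 to 5.84%. *Lipe* (48.9 ± 3.30) and *Abhd5* (44.8 ± 1.39 CPM) formed a lower pair within their spread, and *Mgll* (34.7 ± 2.62) and *G0s2* (16.7 ± 0.0148 CPM) came last, each apart from the gene above it. Over all 4 libraries *G0s2* stood above 28.8% of promoter peaks. In KLG4m/m cells *Dgat2* was again first and *G0s2* again last, *Hilpda* (83.1 ± 8.44 CPM) stood below *Pnpla2* (92.8 ± 4.08) and *Plin2* (89.1 ± 5.82) but within their spread, and 2 exchanges of place were seen below the middle of the order: *Lipe* (63.1 ± 0.588 CPM) now stood above *Dgat1* (61.5 ± 9.02), and *Mgll* (36.8 ± 3.38) above *Abhd5* (34.0 ± 0.0904). Within KLG4m/m cells neither of these 2 pairs differed beyond its spread, whereas in KL cells *Dgat1* was above *Lipe* and *Abhd5* above *Mgll* by more than the sum of their SDs.

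**Figure D1:**
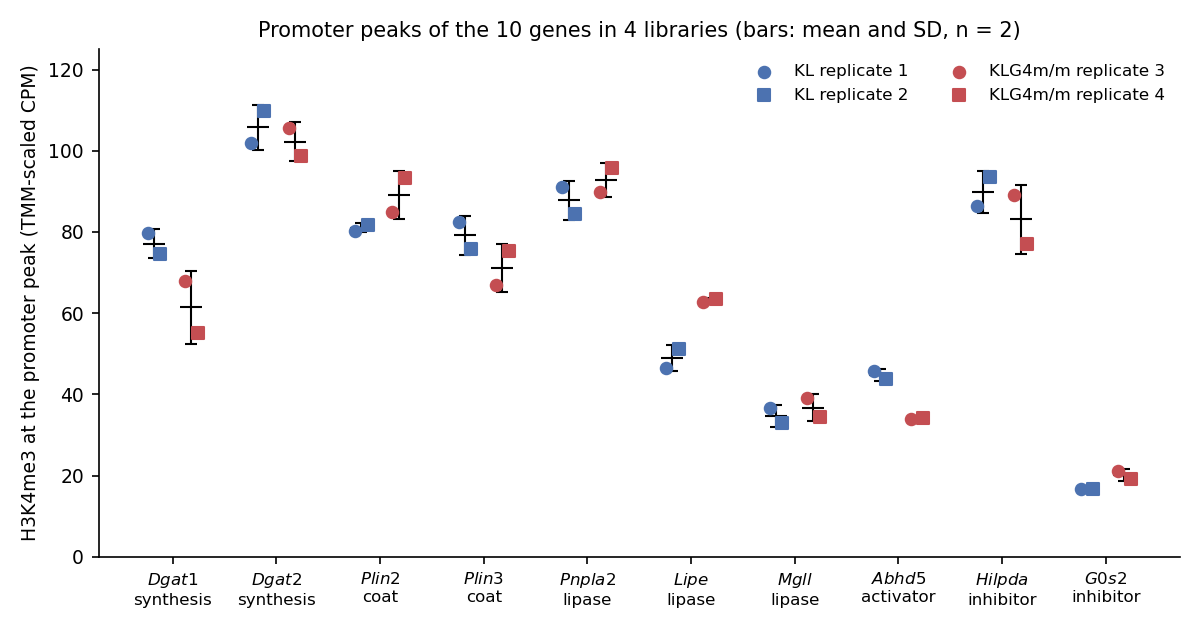
H3K4me3 at the promoter peak of each gene, in TMM-scaled CPM, for each of the 4 libraries (blue, KL; red, KLG4m/m; bars, mean and SD of 2 libraries). The red points lie above the blue points at Lipe, Plin2 and G0s2, below them at Dgat1, Plin3 and Abhd5, and among them at the other 4 genes.

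Over the 10 promoter peaks, 1 was higher in KLG4m/m past the threshold (edgeR adjusted p under 0.05 over all listed peaks) and 0 were lower. Among all 17073 promoter peaks 2.89% were called higher and 8.43% lower. At an unadjusted p under 0.05, 1 member promoter was higher and 2 were lower, 3 of 10 compared with 28.0% of all promoter peaks, and DESeq2 and limma called none. When peaks with a mean under 10 CPM were left out of the fit, the 2 lower ones, *Dgat1* and *Abhd5*, passed (edgeR adjusted p = 0.0276 and 0.0318). The groups did not overlap at 6 of the 10 promoters (3 higher and 3 lower in KLG4m/m), compared with 57% of all promoter peaks, so the members stood near the background by this count. Their median log2 fold change was 0.01, beside 0.00 over all promoter peaks, and their values ran from -0.40 to 0.37.

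The lipase side held the promoter peak that was called. The peak of *Lipe*, on chromosome 7 from 25094916 to 25095316, had 162 and 178 reads in KL and 216 and 205 in KLG4m/m. Both KLG4m/m libraries were above both KL libraries, and the peak rose by 0.37 on the log2 scale (SE 0.111, 95% interval 0.14 to 0.59, edgeR adjusted p = 0.0383), which is 1.29-fold. The call rests on all 4 libraries: leaving out any single one gave adjusted p values from 0.0741 to 0.337, with log2 fold changes from 0.30 to 0.44. With DESeq2 the adjusted p was 0.524. The promoter peak of *Pnpla2*, the lipase of the first step (chromosome 7 from 141035205 to 141035605), held 317 and 293 reads in KL and 310 and 309 in KLG4m/m. These libraries were interleaved, and the log2 fold change was 0.08 (95% interval -0.11 to 0.26, edgeR adjusted p = 0.635). The promoter peak of *Mgll*, the lipase of the last step (chromosome 6 from 88701729 to 88702129), held 127 and 114 reads in KL and 135 and 111 in KLG4m/m, which overlapped as well (log2 fold change 0.09, 95% interval -0.20 to 0.37, edgeR adjusted p = 0.749).

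On the synthesis side, neither DGAT promoter passed the test over all peaks. The single peak of *Dgat1*, on chromosome 15 from 76396000 to 76396400, held 277 and 259 reads in KL and 234 and 178 in KLG4m/m. Both KLG4m/m libraries were lower than both KL libraries, and library 4 was much the lower of the pair. The log2 fold change was -0.32 (95% interval -0.54 to -0.10), and the edgeR adjusted p of 0.0584 missed the threshold. The promoter peak of *Dgat2*, on chromosome 7 from 98831902 to 98832302, held 354 and 381 reads in KL and 364 and 319 in KLG4m/m. Its libraries overlapped, and its interval ran from -0.23 to 0.13. The intervals of *Dgat1* and of *Lipe* did not overlap each other, although the difference between these 2 genes was not itself tested.

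Of the regulators of ATGL, the activator gave the lowest value of all 10 promoters. The single peak of *Abhd5*, the activator (chromosome 9 from 122180282 to 122180682), held 159 and 152 reads in KL and 117 and 110 in KLG4m/m, with little spread within either group. Its log2 fold change was -0.40 (95% interval -0.66 to -0.13), and the edgeR adjusted p was 0.0558. Of the inhibitors, *Hilpda*, which is induced by hypoxia (chromosome 6 from 29272477 to 29272877), held 300 and 325 reads in KL and 307 and 249 in KLG4m/m. These overlapped, and the log2 fold change was -0.11 (95% interval -0.31 to 0.08). *G0s2*, the other inhibitor (chromosome 1 from 192955241 to 192955641), held 58 and 58 reads in KL and 73 and 62 in KLG4m/m. Both KLG4m/m libraries were above KL, with a log2 fold change of 0.28 and an interval from -0.10 to 0.65 (edgeR adjusted p = 0.371). Counting error alone is 11.7 to 13.1% of a *G0s2* value, so a change of the size seen at *Lipe* would be less well resolved at this weak peak.

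The coat genes had small differences of opposite sign. *Plin2*, the coat protein whose level usually follows the droplet content of a cell (chromosome 4 from 86588018 to 86588418), held 279 and 284 reads in KL and 293 and 301 in KLG4m/m. The KLG4m/m values were above the KL values, with a log2 fold change of 0.13 (95% interval -0.06 to 0.32, edgeR adjusted p = 0.387). *Plin3*, which coats small droplets (chromosome 17 from 56597342 to 56597742), held 287 and 263 reads in KL and 231 and 243 in KLG4m/m, with a log2 fold change of -0.16 (95% interval -0.36 to 0.05, edgeR adjusted p = 0.344). Neither passed the test, and the intervals allow at most a moderate change in either gene.

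**Figure D2:**
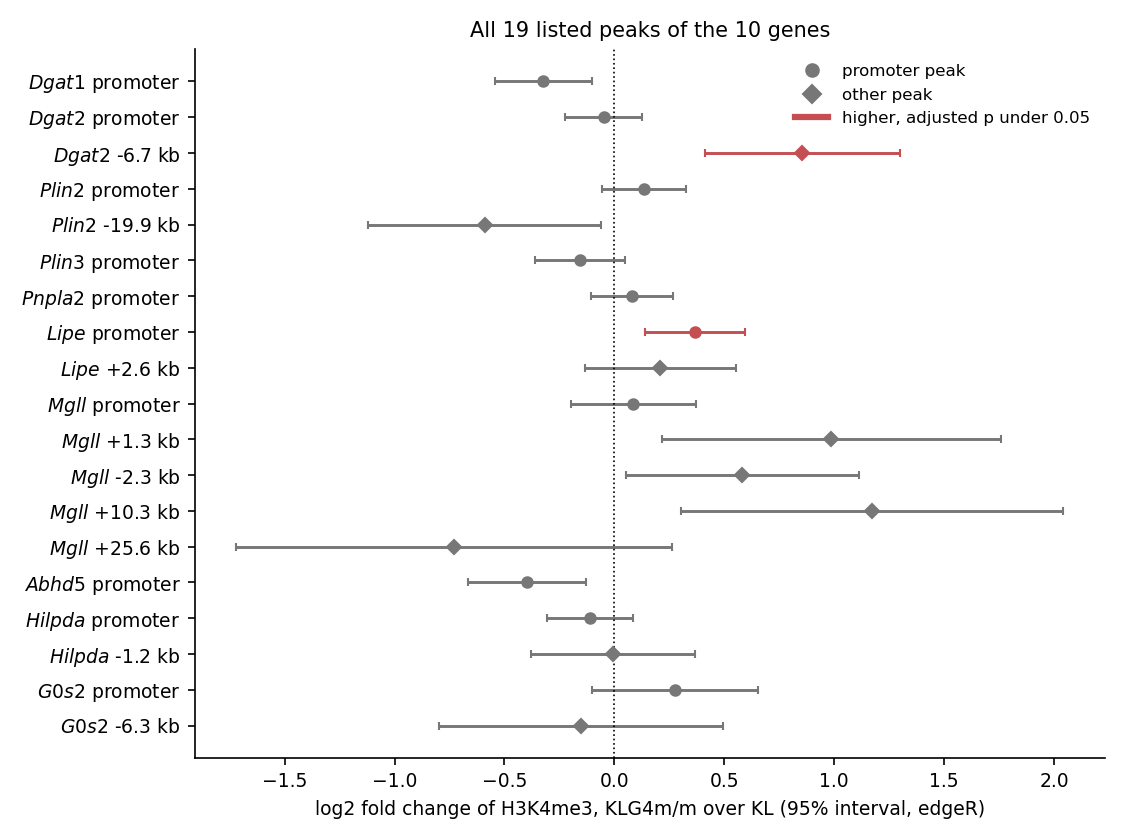
Log2 fold change of H3K4me3, KLG4m/m over KL, at each of the 19 peaks, with a 95% interval derived from edgeR's test. Circles are promoter peaks, diamonds are peaks farther from a start site (signed distance to the start the table assigns), and red marks the peaks of Dgat2 and Lipe that passed the threshold, whereas the intervals of Dgat1, Abhd5 and the distal Plin2 peak lie below 0, and those of 3 Mgll peaks above 0, without passing it.

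Of the 9 peaks beyond 1 kb, 1 was called higher and 0 lower. Among all 18413 such peaks 3.29% were called higher and 2.82% lower. At an unadjusted p under 0.05, 4 were higher and 1 was lower, 5 of 9 compared with 21.5% of all such peaks. The higher ones were the upstream peak of *Dgat2* and otherwise only peaks of *Mgll*, so this count does not stand for separate genes. DESeq2 and limma called none. The groups did not overlap at 6 of the 9 (4 higher and 2 lower in KLG4m/m), compared with 51.6% of all. Their median log2 fold change was 0.21, beside 0.02 over all such peaks, with a range from -0.73 to 1.17. Reads per library ran from 5 to 107 here, compared with 58 to 381 at the promoters.

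The called one was the peak of *Dgat2* that lies 6.74 kb upstream of its start, on chromosome 7 from 98838657 to 98839057. It held 32 and 41 reads in KL and 58 and 69 in KLG4m/m. Both KLG4m/m libraries were above both KL libraries, and the log2 fold change was 0.85 (95% interval 0.41 to 1.30, edgeR adjusted p = 0.0135). Its difference between the groups was then set against that of *Dgat2* as a whole (edgeR's test of a peak against the other peaks of its gene). The upstream peak rose relative to the gene by 0.79 in log2 units (adjusted p from edgeR 0.0426 over the 22232 peaks of genes with several peaks). *Dgat2* has 2 listed peaks, and its promoter peak in the same test gave -0.11 (edgeR adjusted p = 0.765). The 2 peaks were thus told apart from the upstream side only. The upstream peak was the only 1 of the 15 member peaks in this test that passed, and 1.29% of all peaks tested did. Leaving out any 1 library lost this call, with relative changes from 0.60 to 0.97 and adjusted p values from 0.118 to 0.508. The call of the upstream peak itself held without KL replicate 2 (adjusted p = 0.0116) and was lost without any of the other 3 libraries (adjusted p from 0.103 to 0.339), as it was with DESeq2 (0.336). No listed peak of another gene lay near it: the nearest on either side were 33.8 kb (*Uvrag*) and 48.5 kb (*Mogat2*) away, and neither passed the test. In KLG4m/m the upstream peak still carried 19.1 ± 3.21 CPM (SD, n = 2), beside 102.2 ± 4.80 CPM at the promoter.

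*Mgll* had 4 further peaks along its body, the most of any member, each with less signal than its promoter peak. The peak 29.7 kb into the gene from the promoter peak, 1.28 kb past the start of an alternative transcript, held 15 and 8 reads in KL and 20 and 24 in KLG4m/m. The next, 31.8 kb in, held 37 and 22 reads in KL and 40 and 45 in KLG4m/m. The third, 44.95 kb in and in an intron, held 7 and 9 reads in KL and 19 and 16 in KLG4m/m. At these 3 peaks every KLG4m/m library was above every KL library. Their log2 fold changes were 0.99, 0.58 and 1.17, and none passed the threshold (edgeR adjusted p = 0.101, 0.161 and 0.0830). The values of the first pair moved by over 1.5 times without a KL library: the peak at 29.7 kb gave 0.61 without KL replicate 2 and 1.5 without KL replicate 1, and the peak at 31.8 kb gave 0.26 without KL replicate 2 and passed the test without KL replicate 1 (edgeR adjusted p = 0.0481). The peak 60.3 kb in went the other way, from 11 and 15 reads in KL to 10 and 5 in KLG4m/m (log2 fold change -0.73, edgeR adjusted p = 0.369). With as few as 5 reads the counting error alone reached 44.7% of a value. Against the rest of the gene, the peak at 44.95 kb was higher by 0.90 on the log2 scale and the peak at 60.3 kb lower, neither past the threshold (edgeR adjusted p = 0.401 and 0.382).

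The distal peak of *Plin2*, 19.9 kb upstream of an annotated start, held 42 and 38 reads in KL and 30 and 21 in KLG4m/m. It was lower in both KLG4m/m libraries while the promoter peak of the gene was slightly higher, with a log2 fold change of -0.59 (95% interval -1.12 to -0.06, edgeR adjusted p = 0.153). Its difference relative to the gene as a whole was -0.65 on the log2 scale (edgeR adjusted p = 0.264). The second peak of *Lipe*, 2.60 kb past the start of a shorter transcript, held 74 and 96 reads in KL and 107 and 82 in KLG4m/m, so that the groups overlapped where the promoter peak had not. The upstream peak of *Hilpda* held 75 and 62 reads in KL and 65 and 66 in KLG4m/m, and that of *G0s2* held 20 and 24 and then 20 and 18. Neither of these inhibitor genes showed a separation of the groups away from its promoter.

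**Figure D3:**
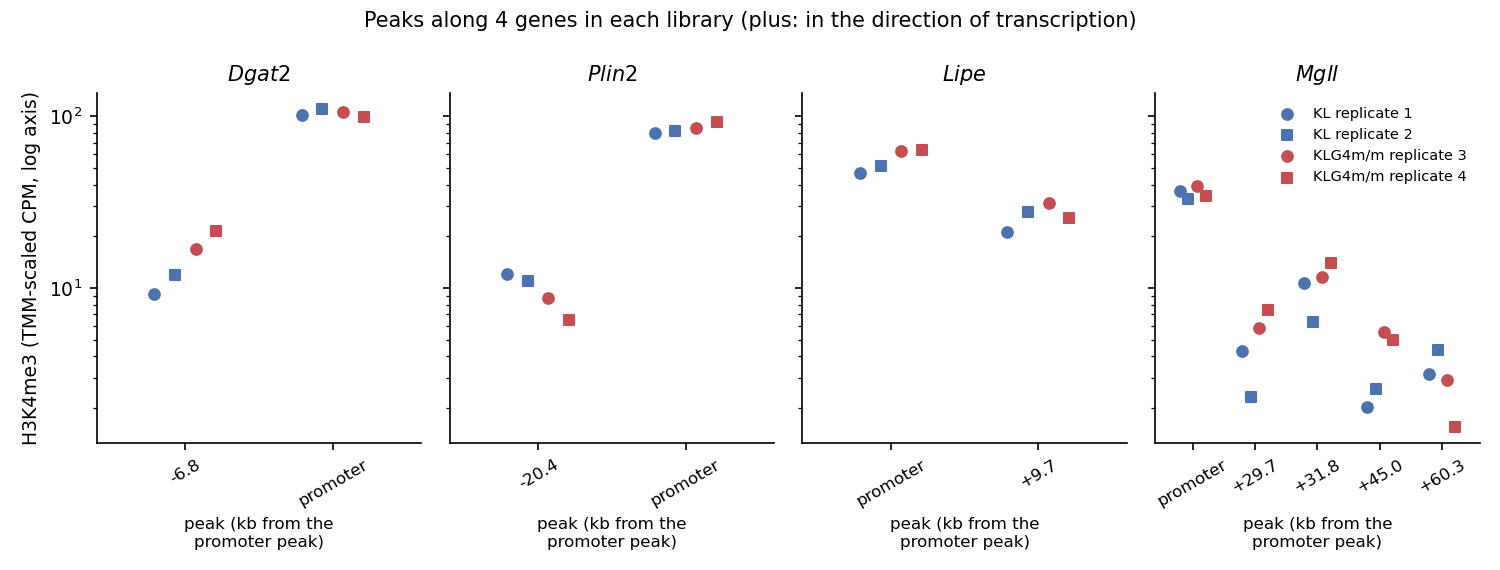
H3K4me3 in each library (TMM-scaled CPM, log axis) at every peak of Dgat2, Plin2, Lipe and Mgll, in order of distance from the promoter peak in kb, with blue for KL and red for KLG4m/m. The groups separate at the upstream peak of Dgat2 and overlap at its promoter peak, and separate at the promoter peak of Lipe and overlap at its second peak.

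When the reads of all peaks of a gene were summed, 1 member was higher (*Lipe*) and 2 were lower (*Dgat1* and *Abhd5*) of 10. Over all 20871 genes 5.38% were called higher and 9.63% lower. *Lipe* rose from 73.5 ± 7.66 to 91.2 ± 3.78 CPM (SD, n = 2 each), or 0.31 on the log2 scale (SE 0.0963, edgeR adjusted p = 0.0157). *Abhd5* fell from 44.8 ± 1.48 to 33.96 ± 0.0523 CPM, or -0.40 on the log2 scale (SE 0.137, edgeR adjusted p = 0.0332). *Dgat1* fell from 77.2 ± 3.76 to 61.5 ± 9.27 CPM, or -0.33 on the log2 scale (SE 0.105, edgeR adjusted p = 0.0219). *Dgat1* and *Abhd5* have 1 peak each, so the reads tested are those that missed the threshold over all peaks, and both calls depend on whether peaks or genes are the tested unit. *Mgll* came next, at 52.6 ± 5.97 and 63.6 ± 2.19 CPM, and its log2 value of 0.27 missed the threshold (edgeR adjusted p = 0.0890). The upstream rise at *Dgat2* did not show in its sum, which was 116.4 ± 7.20 CPM in KL and 121.2 ± 2.10 in KLG4m/m, in which the promoter peak holds most of the reads. *Plin2*, *Plin3*, *Pnpla2*, *Hilpda* and *G0s2* had log2 fold changes between -0.16 and 0.17, and none of them passed. None of the 3 gene calls held with DESeq2 (adjusted p from 0.304 to 0.396) or with limma. Without a single library only the call of *Lipe* was kept, and only without KL replicate 2 (adjusted p = 0.0156). *Dgat1* depended most on 1 library, with -0.18 without KLG4m/m replicate 4 and -0.49 without KLG4m/m replicate 3.

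**Figure D4:**
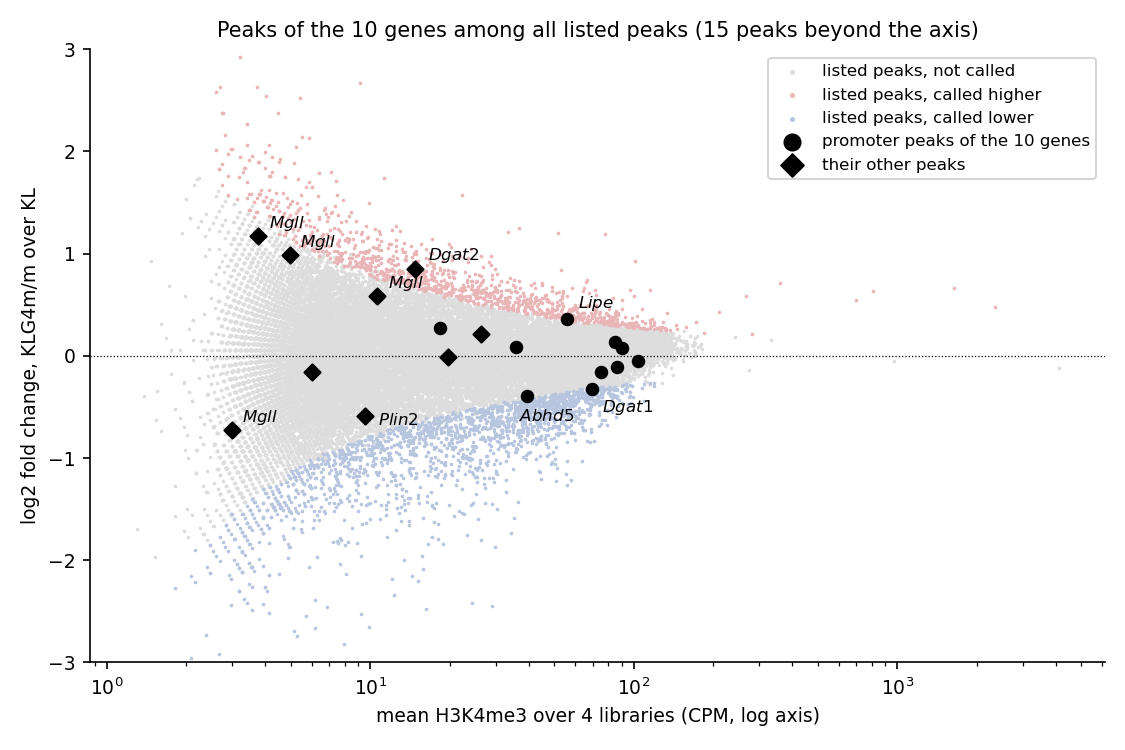
Log2 fold change of H3K4me3, KLG4m/m over KL, against mean signal (CPM, log axis) for all listed peaks (grey, not called; pale red, called higher; pale blue, called lower; 15 peaks lie beyond the vertical axis), with the 19 peaks of the 10 genes in black. Lipe and the upstream peak of Dgat2 lie in the called range and Dgat1 and Abhd5 at its lower edge, whereas the labelled Mgll peaks lie among uncalled peaks of similar mean signal.

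Synthesis was then set against lipolysis within each library, as the summed CPM of all *Dgat1* and *Dgat2* peaks over that of all *Pnpla2*, *Lipe* and *Mgll* peaks. The ratio was 0.884 and 0.927 in the KL libraries and 0.766 and 0.710 in the KLG4m/m libraries. Both KLG4m/m libraries were lower, and the mean was 0.905 ± 0.0301 in KL and 0.738 ± 0.0391 in KLG4m/m (SD, n = 2 each), 0.815 of the KL value. The lipases summed to 215.8 and 211.7 CPM in KL and 248.5 and 246.8 in KLG4m/m, and the DGAT genes to 190.7 and 196.2 in KL and 190.2 and 175.2 in KLG4m/m. With promoter peaks alone the KLG4m/m value was 0.796 of the KL value, with *Dgat1* alone on the synthesis side 0.688 and with *Dgat2* alone 0.899. Adding *Abhd5*, whose signal fell, to the lipases brought it to 0.867, and adding *Hilpda* and *G0s2* to the synthesis side to 0.824. The direction was the same in each of these forms. The inhibitors *Hilpda* and *G0s2* over the activator *Abhd5* gave 2.85 and 3.09 in KL and 3.97 and 3.59 in KLG4m/m, 1.27 times the KL value, and this increase came with the lower *Abhd5* signal, since the inhibitors summed to 130.3 and 135.1 CPM in KL and 134.9 and 122.3 in KLG4m/m. These ratios carry no test, because the members were chosen with earlier results known, and they compare amounts of a histone mark and not of enzyme or lipid.

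**Figure D5:**
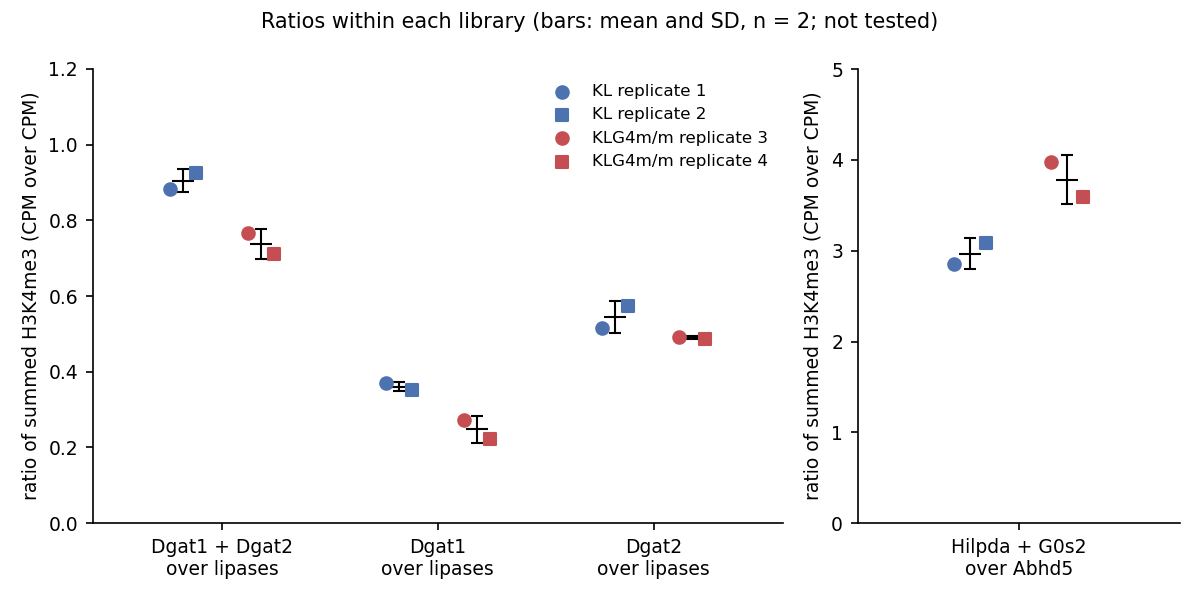
Ratios of summed H3K4me3 (CPM over CPM, all peaks) in each library, with mean and SD of 2 libraries: DGAT genes over the lipases Pnpla2, Lipe and Mgll on the left, and the ATGL inhibitors over the ATGL activator on the right. KLG4m/m libraries lie below KL for each DGAT ratio and above KL for the inhibitors over Abhd5.

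Other genes of the pathway were taken from 3 lists. Of 18 genes of droplet assembly and neutral lipid synthesis, 10 had a listed peak, 1 was higher and 0 were lower per gene, with a median log2 fold change of 0.03 beside 0.00 over all genes. The higher one was *Soat2*, which makes cholesteryl esters, the other neutral lipid of droplets. It held 47.0 and 44.9 CPM in KL and 59.6 and 58.9 in KLG4m/m (log2 fold change 0.37, edgeR adjusted p = 0.0230). Of 16 coat and fusion genes, 12 had a listed peak, 1 was higher and 0 were lower, and *Plin1*, *Plin4*, *Plin5* and *Cidec* had no listed peak at all. The higher one was *Hsd17b13*, a droplet protein best known from liver, with 8.65 and 8.64 CPM in KL and 18.3 and 15.1 in KLG4m/m (log2 fold change 0.95, edgeR adjusted p = 0.00191). It has a single listed peak, in its first intron and 4.22 kb from its start, where each KL library had 30 reads and the KLG4m/m libraries 63 and 49. Of 20 genes of other hydrolysis, lipophagy and fatty acid handling, 16 had a listed peak, 1 was higher and 3 were lower, with a median of -0.11. Over all genes 5.38% were called higher and 9.63% lower, so that with lists of this size the counts stood near the background.

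The 3 genes that fell in this last list encode hydrolases. *Dagla*, a diacylglycerol lipase, held 50.2 and 50.7 CPM in KL and 30.8 and 30.5 in KLG4m/m (log2 fold change -0.72, edgeR adjusted p = 3.56e-05). *Abhd12*, which cleaves lysophosphatidylserine and monoacylglycerol, held 100.1 and 94.7 CPM in KL and 79.9 and 75.6 in KLG4m/m (log2 fold change -0.32, edgeR adjusted p = 0.00885). *Ddhd2*, a TAG hydrolase known from the brain, held 88.2 and 86.4 CPM in KL and 74.1 and 68.2 in KLG4m/m (log2 fold change -0.29, edgeR adjusted p = 0.0264). For *Dagla* and *Abhd12* the promoter peak was itself called lower, and for *Ddhd2*, with 1 peak, it was not (edgeR adjusted p = 0.0532). *Tfeb*, a transcription factor of lysosome and lipophagy genes, was the gene that rose, from 128.1 ± 6.58 to 152.2 ± 5.87 CPM (log2 fold change 0.25, edgeR adjusted p = 0.0130). It has 7 peaks, of which 2 were called higher. Other hydrolases of the list had higher values in both KLG4m/m libraries without passing the test. These were *Daglb*, the paralogue of *Dagla* (log2 fold change 0.20, edgeR adjusted p = 0.135), *Lipa* (0.15) and *Pnpla6* (0.10). Lower in both, also without passing, were *Ces1d* (log2 fold change -0.69, edgeR adjusted p = 0.115), *Pnpla3* (-0.25) and *Lpl* (-0.18). The list thus held values of both signs.

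The nearest listed peaks of other genes on each side of the member peaks gave 21 different peaks, of which 1 was called higher and 0 lower. The higher one was the promoter peak of *Hsd11b1*, which regenerates active glucocorticoid and lies next to *G0s2*, 8.63 kb from its promoter peak. It held 40 and 63 reads in KL and 75 and 87 in KLG4m/m (log2 fold change 0.71, edgeR adjusted p = 0.0276). Among the listed peaks as a whole, 2.89% of promoter peaks and 3.29% of the others were called higher, so 1 of 21 stood near the background. No neighbour of *Lipe*, *Abhd5*, *Dgat1* or *Dgat2* passed the test. Both neighbours of *Abhd5* had lower reads in both KLG4m/m libraries, as *Abhd5* itself had. That of *Gm35398*, 13.3 kb away, held 20 and 26 reads in KL and 11 and 12 in KLG4m/m (log2 fold change -0.94, edgeR adjusted p = 0.103). That of *Gm35454*, 73.3 kb away, held 29 and 22 reads in KL and 16 and 14 in KLG4m/m (log2 fold change -0.70, edgeR adjusted p = 0.179). The peak of *Scrt1*, 6.62 kb from that of *Dgat1*, held 66 and 60 reads in KL and 53 and 51 in KLG4m/m. Its log2 fold change was -0.22 (edgeR adjusted p = 0.510). Neighbours also went against their member. *Uhrf1*, beside the lower *Plin3*, was higher in both KLG4m/m libraries (log2 fold change 0.23, edgeR adjusted p = 0.125). *Lamb3*, beside the higher *G0s2*, was lower in both (log2 fold change -0.45, edgeR adjusted p = 0.157). A link between members and neighbours was not tested.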

How the data were processed

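H3K4me3 was profiled by CUT&Tag with a protein A/G-MNase kit in 2 KL and 2 KLG4m/m libraries. The series has 8 samples, and the H3K27ac libraries were not analysed here. Per the study's methods and the submitters' processing notes, the authors trimmed reads with Trim Galore 0.6.10, mapped them with BWA 0.7.15, removed mitochondrial reads, reads with mapping quality under 30 and duplicates (Picard 2.17.3), called peaks with MACS2 2.2.7.1 and annotated them with HOMER 4.11.1. The methods name a GRCm38 Ensembl release as the genome, but the table gives positions that differ from GRCm38, and these are printed as deposited with no build. The authors deposited 1 table with whole read counts per peak and library, without normalization, which were used here. The table also holds CPM and the authors' own comparison (fold change, mean level, test statistic, p and adjusted p), which were not used.

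The counts were scaled by TMM and compared with edgeR 4.0.16 (quasi-likelihood test, two-sided, no filter, no covariate, R 4.3.3), with Benjamini-Hochberg adjustment over all 35486 peaks, or over 20871 genes for reads summed over a gene's peaks, and a threshold of 0.05. A peak was set against the other peaks of its gene with edgeR's diffSpliceDGE on the same fit. Levels are TMM-scaled CPM. An exact permutation test of 2 against 2 libraries cannot go below p = 0.333, so the p-values draw on a spread that edgeR estimates across all peaks. They measure the spread between these libraries, and counting errors cover counting only. Since values are relative to the reads in peaks, a change of the mark by 1 factor everywhere would not be seen. The scripts were tested on simulated data. Promoter windows were searched with Python 3.11.15.

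The members and lists were chosen with earlier results of these data known. Named were all 10 members with all peaks, *Gpx4*, the listed pathway genes past the threshold, and the nearest neighbouring peak on each side past the threshold. Other genes were added to these after their values were seen. They were the marker genes, the hydrolases *Daglb*, *Lipa*, *Pnpla6*, *Ces1d*, *Pnpla3* and *Lpl*, and neighbours of members. The neighbours were *Uvrag*, *Mogat2* and *Scrt1* (of the DGAT genes), *Gm35398* and *Gm35454* (of *Abhd5*), *Uhrf1* (of *Plin3*) and *Lamb3* (of *G0s2*). Alternatives were DESeq2 1.42.0, total-read and upper quartile scaling, limma 3.58.1 on log2(CPM + 1) and log2(CPM + 0.25), quantile normalization and median centring with limma, a mean of at least 10 CPM, 1 peak per gene, and leaving out each library in turn.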

Additional observations from a re-analysis of the deposited data

How the results depend on the processing

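No paired analysis was possible because the KL libraries carry replicate numbers 1 and 2 and the KLG4m/m libraries 3 and 4, so that no number is shared. The calls depended on the tool and on each library. DESeq2 called 33 peaks higher and 244 lower (1099 and 1960 in the analysis reported), and 119 genes higher and 336 lower (1122 and 2010). Upper quartile scaling called 2122 peaks higher. Limma called 0 peaks in either direction in each of its 4 forms. For genes limma called 36 higher and 83 lower on log2(CPM + 1), 1 and 0 on log2(CPM + 0.25), 0 and 0 after quantile normalization, and 57 and 69 after median centring. DESeq2 and every limma form called 0 member peaks and 0 member genes. With 1 peak per gene, 733 genes (the peak nearest the start) or 725 (the highest peak) were higher. The filter of 10 CPM called 2 member peaks lower. Without 1 library in turn, 0 to 702 peaks were higher and 0 to 1459 lower, and 0 to 649 genes were higher and 0 to 1305 lower. In the same fits 0 to 1 member peaks and 0 to 1 member genes were higher, and 0 to 0 of either were lower. The upstream *Dgat2* peak against its gene gave 0.603 to 0.974. The cause of these differences was not tested. Fits without 1 library leave 1 in its group, which is assumed to vary like the other pair.

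The KLG4m/m ratio of synthesis to lipolysis stayed below that of KL in each form, relative to it at 0.688 and 0.710 for *Dgat1* alone (all peaks, promoter peaks), 0.899 and 0.859 for *Dgat2* alone and 0.867 with *Abhd5*. Signs turned only for values near 0 that passed in no fit: the summed *Dgat2* value to -0.00264 (quantile normalization), -0.0467 and -0.0545 (1 peak per gene), its promoter peak to 0.0116 (upper quartile), the *Mgll* promoter peak, and the upstream *Hilpda* peak to 0.0534 (upper quartile), 0.0232 (quantile) and 0.0196 (median centring). Without 1 library these promoter peaks gave -0.103 to 0.00571 (*Dgat2*) and -0.0169 to 0.177 (*Mgll*), and the *Hilpda* peak -0.137 to 0.136. Of 368 values of single peaks and genes over these alternatives, 307 kept their direction and side of the threshold. A further 47 lost the call, 3 gained it and 11 changed sign. Among the 307 are values without an adjusted p from DESeq2, at the *Mgll* peaks 29.7, 44.95 and 60.3 kb in and the upstream *G0s2* peak. Only values called in the reported analysis could lose a call. These passed in 5 of 14 alternatives each (sums of *Dgat1* and *Abhd5*), 6 of 14 (sum of *Lipe*) and 3 of 12 (*Lipe* promoter peak). The upstream *Dgat2* peak passed in 4 of 12, and in 1 of 5 against its gene. At this depth weak peaks limit what can be seen.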
